A study of Homo sapiens with 8 samples.

Results

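The genes described here encode the DNA replication machinery, 44 genes of the 60675 in the files. They were chosen by symbol, from origin recognition to the supply of deoxynucleotides, and each symbol was matched to its Ensembl gene identifier. H9 human embryonic stem cells (hESCs), an established cell line also called WA09, had been kept in culture for increasing numbers of passages. P1 hESCs were at passages in the 40s, P2 hESCs in the 100s, P3 hESCs in the 200s and P4 hESCs in the 300s. All 4 were grown without feeder cells on Matrigel in mTeSR1 medium and passaged with dispase, and no drug or genetic modification distinguishes the groups in the labels. The study describes a copy number gain on the long arm of chromosome 20 in P3 and P4 hESCs, and normal copy numbers in P1 hESCs. Late passage and this gain cannot be told apart here. Poly(A) RNA was sequenced from 2 samples of each, giving 8 libraries of 26874899 to 38095600 expected counts, and each passage group derives from the same H9 line, so that a difference between groups is a difference between 4 cultures. No source says that the 2 samples came from separate cultures, so the p-values measure only the spread between these samples, which may be technical.

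Before a cell enters S phase, the origin recognition complex (ORC) marks the sites where replication can start, and CDC6 and CDT1 load the MCM2 to MCM7 ring onto DNA there, a step called licensing. Kinases then recruit CDC45 and the GINS complex, which turn the ring into the active helicase, and the primase and polymerases α, δ and ε copy the opened strands with the help of the sliding clamp PCNA and its loader, replication factor C. Pluripotent stem cells have a short G1 phase and spend a large share of their cycle in S phase, and many of these genes are transcribed under E2F factors at the passage from G1 to S. In bulk RNA, fewer cells in S phase and less RNA per cell cannot be told apart.

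All 44 genes passed the filter on low counts and were among the 19499 genes tested. The smallest count behind a value was 199 (ORC5). The label of the cells was checked first. All 12 pluripotency markers were expressed, with POU5F1 between 1095 and 2421 TPM (a length-scaled transcript level), and their summed level was 3654 to 5344 TPM over the samples. Of the 10 mesendoderm markers, 6 were under 1 TPM in every sample and the summed level was 3.34 to 7.81 TPM. Among 8 neuroectoderm markers, 4 were under 1 TPM throughout, and the sum of 179.8 to 302.5 TPM lay mostly in NES and OTX2. Fibroblast markers COL3A1, LUM and DCN were at or near 0, while THY1, which hESCs also carry, COL1A1 and COL1A2 made up most of that list's 460.2 to 776.9 TPM. Between P3 and P1 hESCs, where most calls of replication genes lie, no pluripotency marker passed, THY1, DCX and FOXA2 rose and EOMES fell. In P3 and P4 against P1 and P2 hESCs, PODXL fell and DCX and POSTN rose. In P4 against P1, PODXL and OTX2 fell and ZFP42 rose. In P3 against P2, ZFP42 and EOMES fell, as did GATA4, GATA6 and TBXT, each under 1 TPM in every sample, and FOXA2 and POSTN rose. In P4 against P3, EOMES rose and FOXA2 fell. FOXA2 was at 2.72 and 3.63 TPM in P3 hESCs and under 1 TPM in the other 6 samples, EOMES was at 0.03 and 0.04 TPM in P3 hESCs, and their part in the values of the replication genes was not tested. The share of counts from mitochondrially encoded genes was 17.2 to 18.5% in P1 replicate 2, P3 replicate 1 and P4 replicate 1, and 5.89 to 9.84% in the other 5 libraries. The replication genes took 0.438 to 0.56% of the counts outside mitochondrial genes, lowest in P4 replicate 2 and highest in P3 replicate 2.

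The promoters of the replication genes were compared with those of other genes, since the choice of members did not use sequence. RefSeq promoter windows on GRCh38.p14, from 250 bases before to 50 bases after the start of transcription, were found for 38 of the 44 genes; RPA2, RPA3, MCM4, MCM5, GINS4 and POLD3 were not matched. The letters TTTCCCGC or TTTGGCGC, forms of the E2F binding motif, were present on either strand in 17 of the 38 (44.74%), against 4.138% of 13146 tested genes with a window. A CCAAT box, the letters CCAAT on either strand, was present in 23 of the 38 (60.53%), against 42.26%. A match of letters is a description of the window and not evidence of binding. The sequences below are those of the 7 genes that passed a test between passage groups and had a window; each runs 5′ to 3′ on the gene's strand from 200 bases before to 5 bases after the RefSeq start, and capitals mark the E2F letters or their reverse complements GCGGGAAA and GCGCCAAA.
MCM6 (chr2:135876439-135876643, minus strand): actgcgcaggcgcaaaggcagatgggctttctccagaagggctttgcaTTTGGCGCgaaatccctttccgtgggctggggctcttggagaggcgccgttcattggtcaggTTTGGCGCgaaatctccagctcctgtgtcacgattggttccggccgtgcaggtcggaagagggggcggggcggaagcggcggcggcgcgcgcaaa
GINS2 (chr16:85688950-85689154, minus strand): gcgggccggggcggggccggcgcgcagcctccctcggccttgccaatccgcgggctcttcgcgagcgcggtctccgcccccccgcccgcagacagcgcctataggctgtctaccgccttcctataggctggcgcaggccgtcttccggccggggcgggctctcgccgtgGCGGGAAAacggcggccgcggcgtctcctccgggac
GINS3 (chr16:58392271-58392475, plus strand): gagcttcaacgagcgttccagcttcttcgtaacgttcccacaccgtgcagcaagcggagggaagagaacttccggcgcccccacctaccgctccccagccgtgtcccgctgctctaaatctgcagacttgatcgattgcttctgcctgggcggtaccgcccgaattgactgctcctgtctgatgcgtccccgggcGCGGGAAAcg
ORC3 (chr6:87589935-87590139, plus strand): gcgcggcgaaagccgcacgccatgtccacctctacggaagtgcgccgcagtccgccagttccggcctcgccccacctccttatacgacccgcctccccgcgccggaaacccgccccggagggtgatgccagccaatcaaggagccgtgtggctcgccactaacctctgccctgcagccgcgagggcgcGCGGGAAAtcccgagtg
GMNN (chr6:24775213-24775417, plus strand): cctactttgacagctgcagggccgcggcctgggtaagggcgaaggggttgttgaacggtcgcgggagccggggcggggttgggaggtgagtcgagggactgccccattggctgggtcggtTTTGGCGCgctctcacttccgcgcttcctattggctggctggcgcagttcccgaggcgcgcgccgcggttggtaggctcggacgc
POLA1 (chrX:24693718-24693922, plus strand): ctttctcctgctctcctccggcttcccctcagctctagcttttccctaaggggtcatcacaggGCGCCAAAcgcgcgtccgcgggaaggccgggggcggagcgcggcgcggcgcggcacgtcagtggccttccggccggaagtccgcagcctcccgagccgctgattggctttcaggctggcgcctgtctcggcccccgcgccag
POLE (chr12:132687338-132687542, minus strand): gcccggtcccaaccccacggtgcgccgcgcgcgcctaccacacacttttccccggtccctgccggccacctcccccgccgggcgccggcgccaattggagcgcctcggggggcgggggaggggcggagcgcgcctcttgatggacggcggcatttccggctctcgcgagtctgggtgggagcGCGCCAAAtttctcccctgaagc
The window of MCM6 held 2 copies of TTTGGCGC, at positions -152 and -90 from the start, and each of the other 6 windows held 1 copy. In ORC3, GINS3 and POLE the copy lay close to the start, with its first base at -12, -5 and -18.

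Levels were first compared between the genes on the TPM scale. The mean over the 8 samples ranged from 10.07 TPM for ORC5 to 232.6 TPM for PCNA, with a median of 49.23 TPM, against a median of 6.391 TPM over all tested genes, of which 58.8% had a lower mean than the lowest replication gene. Within the MCM ring, whose 6 proteins are present in equal numbers in the complex, mean levels ran in the order MCM7 (227.3 TPM), MCM3 (166.3 TPM), MCM4 (145.1 TPM), MCM5 (126.8 TPM), MCM2 (76.41 TPM) and MCM6 (61.59 TPM). MCM7 was above MCM3 in 8 of 8 samples and MCM5 was above MCM2 in 8 of 8, whereas MCM3 was above MCM4, and MCM4 above MCM5, in 6 of 8. In the ORC, ORC6 had the highest mean (47.09 TPM) and ORC5 the lowest (10.07 TPM), and ORC3 and ORC4, at 37.16 and 36.01 TPM, differed by less than their range over samples. The clamp PCNA stood above each of the 5 loader subunits in every sample, and RFC4 was the most abundant of these (79.72 TPM). Among the GINS genes the order was GINS4, GINS1, GINS2 and GINS3, from 39.23 to 10.34 TPM. POLD2, the accessory subunit of polymerase δ, had a mean of 104.8 TPM, above POLD1, its catalytic subunit, at 62.71 TPM, and POLD3 at 12.23 TPM.

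**Figure D1:**
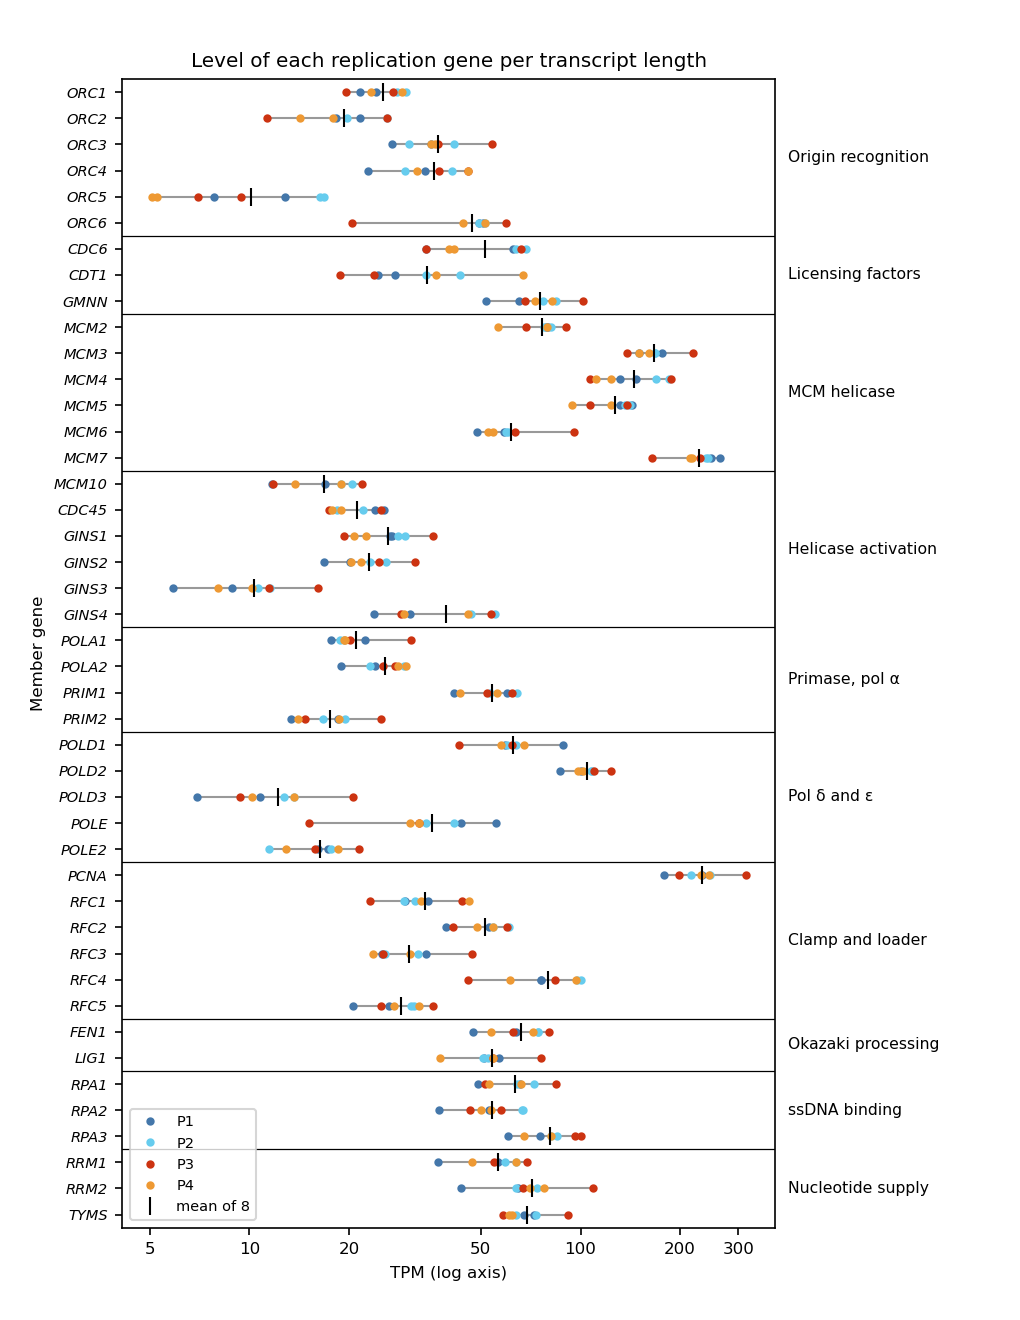
TPM of the 44 replication genes (log axis), with 1 point per sample coloured by passage group, a grey line from the lowest to the highest of the 8 samples and a black tick at the mean. PCNA (232.6 TPM) and MCM7 (227.3 TPM) had the highest means and ORC5 (10.07 TPM) the lowest.

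Levels of 1 gene were compared between samples as CPM, counts scaled to library size, with TMM factors, because another scale shifts all genes: in P3 compared with P2 hESCs the median log2 fold change of all tested genes was -0.01 in CPM and -0.21 on log2(TPM + 1). The mean log2 CPM over the 44 genes was 6.08 and 6.03 in P1, 6.13 and 6.08 in P2, 6.30 and 6.39 in P3 and 6.18 and 5.96 in P4 hESCs. Both P3 samples were thus above the other 6, and P4 replicate 2 was the lowest. The replicate with the larger mitochondrial share was the lower of the pair in P1, P2 and P3 hESCs and the higher in P4 hESCs. In P2 hESCs the 2 shares were close, at 6.55 and 6.72%. The part of this share in the means was not tested. The order of the samples was not the same without TMM factors. As a share of the counts outside mitochondrial genes, the replication genes took 0.489% in P3 replicate 1, below P4 replicate 1 (0.509%). P3 replicate 2 was the highest on both scales (0.56%). In CPM, both P3 samples exceeded the other 6 in 21 of the 44 genes, a rule chosen after the values were seen, while 12.6% of all tested genes did so. CDT1 was the only replication gene with both P3 samples below the other 6 (12.0% of all tested genes), and also the only one with both P4 samples above them (6.02%). P4 replicate 2 was the lowest of the 8 samples for 15 genes (14.4% of all tested genes), among them MCM2, MCM3, MCM4, MCM5 and MCM7, and P1 replicate 2 for 19 (17.8%).

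**Figure D2:**
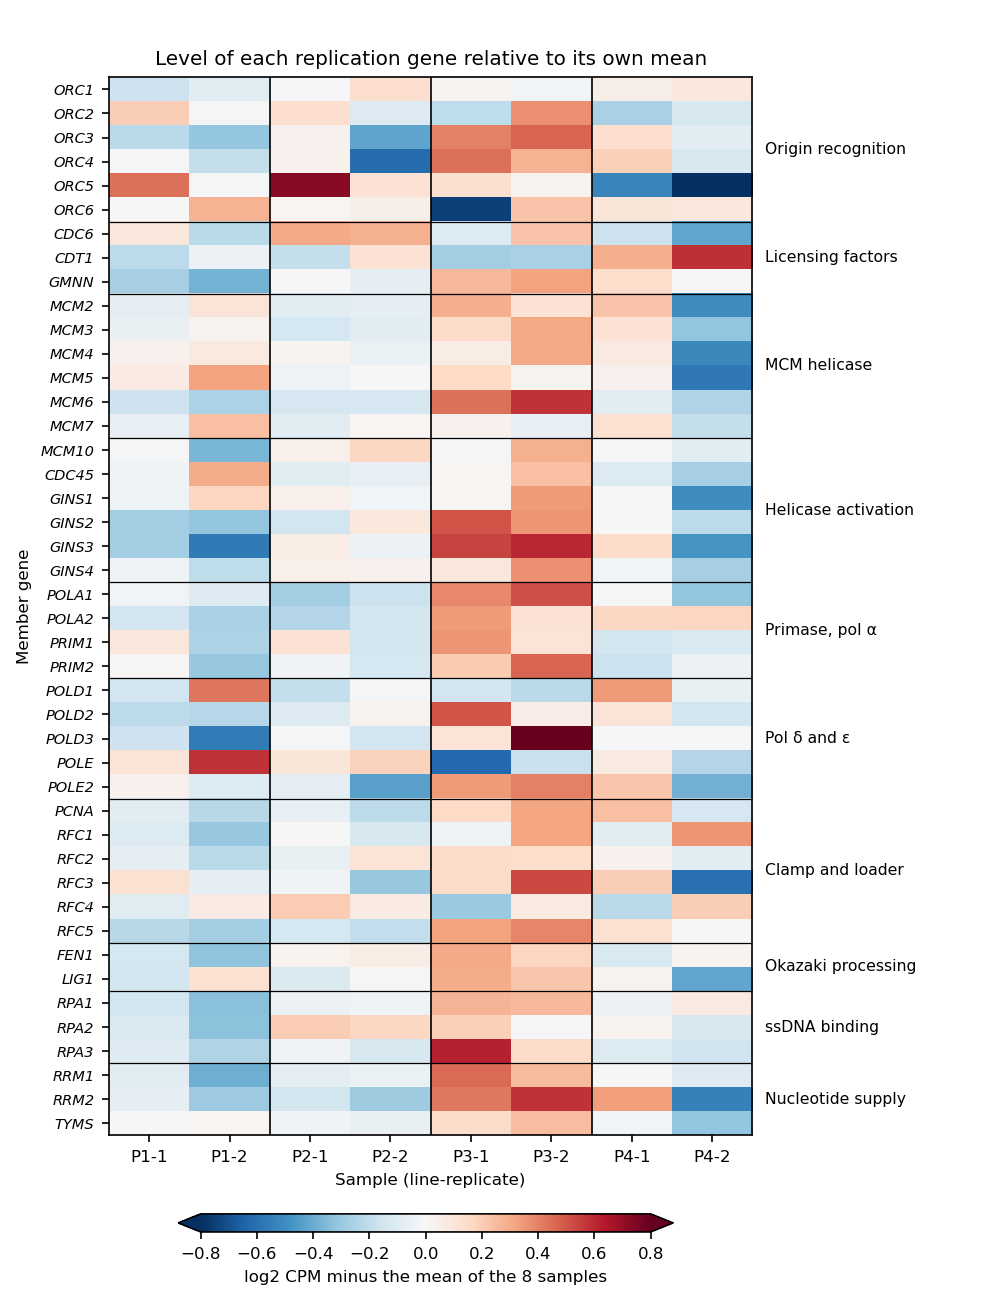
Log2 CPM of each replication gene minus its own mean over the 8 samples, with genes ordered by role and samples by passage group; red is above and blue below the mean, and the colour scale ends at 0.8 in either direction. The 2 P3 columns are red for most genes, and MCM2 to MCM5 are blue in P4 replicate 2.

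Whether late-passage cells, the P3 and P4 hESCs that the study sets apart for their survival trait, differ from P1 and P2 hESCs was asked with 4 samples against 4. The model counted the 2 samples of a passage group as independent, although each side holds only 2 passage groups. No replication gene passed at an adjusted p under 0.05 in edgeR's quasi-likelihood test, adjusted by Benjamini-Hochberg across the 19499 tested genes, of which 7.54% passed. At an unadjusted p under 0.05 there were 9 of 44 (25.5% of all tested genes). The 44 genes had a median of 0.17 on the log2 scale, against 0.01 over all tested genes, and 32 of the 44 were above 0 (50.5% of all tested genes). DESeq2 called 2 replication genes, POLA2 and RFC5, and 13.9% of all genes. Without P4 replicate 2, edgeR called 3 as higher, ORC3, RFC5 and RRM2, and 10.9% of all genes, and the 4-group model called 1, ORC5, as lower, and 15.9% of all genes.

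Few genes separated the 2 sets of samples. POLA2 is the regulatory subunit of polymerase α, which lays down the first stretch of DNA after the primer. POLA2 was at 34.9 and 32.5 CPM in P1, 33.0 and 35.1 in P2, 49.3 and 42.0 in P3 and 43.6 and 43.8 in P4 hESCs. RFC5, a subunit of the clamp loader, was at 28.3 and 27.4 CPM in P1, 29.9 and 28.8 in P2, 41.2 and 43.2 in P3 and 35.9 and 33.0 in P4 hESCs. In both genes all 4 late samples stood above all 4 early samples, a pattern of 8.38% of all tested genes, with log2 fold changes of 0.40 ± 0.12 (SE; edgeR's adjusted p = 0.0665) and 0.42 ± 0.13 (edgeR's adjusted p = 0.0758). RFC5 shares exons on the opposite strand with WSB2, and it is not known here whether the counting used the strand. POLE alone had all 4 late samples below all 4 early ones (9.19% of all tested genes), and its values are given with the polymerases.

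P3 hESCs stood apart from P1 hESCs in more genes. Of the 44 genes, 7 passed at an adjusted p under 0.05 (12.5% of all tested genes passed): MCM6, GINS2, GINS3, ORC3, GMNN and POLD3 rose in P3 hESCs (4.49% of all tested genes rose) and POLE fell (8.0% fell). The share that passed in either direction, 15.9%, was near that of all genes. The median log2 fold change was 0.33, against -0.02 over all tested genes, and 35 of 44 genes were above 0 (48.4% of all). The study's own rule was an absolute log2 fold change above 1 with an adjusted p under 0.01, taken there from DESeq2. The rule was applied here to edgeR's values, and none of the 7 met it (3.93% of tested genes did). Nor did any replication gene in late against early (2.2%), P3 against P2 (3.42%), P4 against P1 (2.11%) or P4 against P3 hESCs (0.815%). With DESeq2, GINS3 in P3 against P1 just missed the rule, at a log2 fold change of 0.995 (DESeq2's adjusted p = 0.00286). Against P2 hESCs, MCM6 and POLA1 rose in P3 hESCs, 2 of 44 where 11.7% of tested genes passed, and the 44 genes had a median of 0.27 on the log2 scale. Across the 4 passage groups the F test called MCM6 alone (13.1% of tested genes), and DESeq2 called 8 of the 44 (21.0% of all genes). In P3 against P1, limma on log2(TPM + 1) called none (4.46% of all genes). Once each sample was centred on its median, limma called 7 (8.48%), which did not include ORC3 or POLD3. With all samples edgeR called 7, and only GINS3 passed in a fit of the 4 samples of P1 and P3 hESCs (10.7% of all genes). These calls rested on few samples: in P3 against P1, leaving out P1 replicate 2 left 0 calls, leaving out P1 replicate 1 or either P2 sample left 1, leaving out P3 replicate 1 left 2, and leaving out P3 replicate 2 left 2 of the 7 (GINS2 and POLE) with ORC6 and RPA3 called besides. Leaving out either P4 sample added RRM2, and without P4 replicate 2 POLE was no longer called. Over all genes the share called in these fits was 2.57 to 13.7%. The comparisons of P3 with P1 and with P2 hESCs share the P3 samples.

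**Figure D3:**
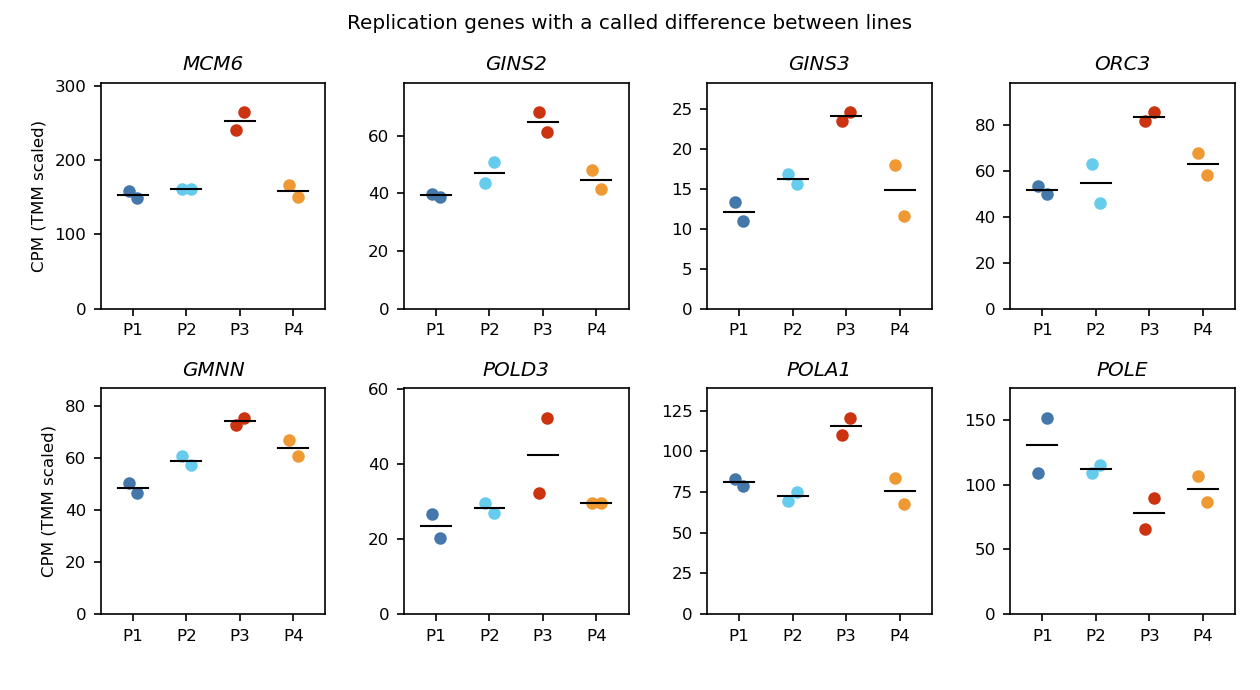
CPM (TMM scaled) of the 8 replication genes called in at least 1 comparison of P3 hESCs, with 1 point per sample and a line at the mean of 2 samples; each axis starts at 0. In MCM6 both P3 samples (241 and 264 CPM) lie above the other 6 (149 to 167 CPM), and in POLD3 the 2 P3 samples lie far apart (32.2 and 52.4 CPM).

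In the ORC, 1 of 6 genes rose in P3 compared with P1 hESCs, where 4.49% of all tested genes rose. ORC3 (ENSG00000135336, chr6:87590067-87667453), the subunit at the core of the complex, was at 53.5 and 49.97 CPM in P1, 63.4 and 46.2 in P2, 82.1 and 85.8 in P3 and 68.1 and 58.4 in P4 hESCs. Its 2 P3 samples lay above all others, and the log2 fold change against P1 was 0.70 ± 0.20 (SE; edgeR's adjusted p = 0.0431). Another core subunit, ORC4, was at 44.3 and 39.1 CPM in P1, 45.7 and 29.1 in P2, 60.6 and 54.2 in P3 and 51.0 and 40.8 in P4 hESCs. The 2 P3 samples of ORC4 were again the highest, with a difference from P1 that did not pass (0.46 ± 0.23; edgeR's adjusted p = 0.21), and ORC4 shares exons with ACVR2A and MBD5 on the opposite strand. ORC5, which binds ATP in the complex, was at 16.9 and 12.3 CPM in P1, 20.6 and 13.5 in P2, 13.6 and 12.7 in P3 and 8.65 and 6.70 in P4 hESCs. The 2 P4 samples of ORC5 were the lowest of the 8, and the difference from P1, -0.93 ± 0.28, did not pass in edgeR (adjusted p = 0.069) but passed in DESeq2 and without a filter. ORC1, ORC2 and ORC6 had CPM values of 31.6 to 70.1 over the samples, and none passed in any pair of passage groups. ORC6 ranged in P3 hESCs alone from 31.6 to 62.1 CPM.

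Among the 3 licensing factors, GMNN rose in P3 compared with P1 hESCs (4.49% of all tested genes rose). GMNN encodes geminin (ENSG00000112312, chr6:24774931-24786099), which binds CDT1 and keeps origins from being licensed again after they have fired. GMNN was at 50.5 and 46.7 CPM in P1, 60.8 and 57.4 in P2, 72.8 and 75.7 in P3 and 66.9 and 60.7 in P4 hESCs. Its 2 P1 samples were the lowest, as in 8 of the 44 genes (6.46% of all tested genes), and its 2 P3 samples the highest, with a log2 fold change in P3 against P1 of 0.61 ± 0.18 (SE; edgeR's adjusted p = 0.0437; 0.0554 without a filter). CDT1, the loader that geminin inhibits, was at 55.7 and 62.3 CPM in P1, 56.5 and 69.7 in P2, 53.1 and 53.7 in P3 and 78.7 and 96.7 in P4 hESCs. CDT1 thus had its lowest values in P3 and its highest in P4 hESCs, a difference of 0.72 ± 0.20 on the log2 scale that did not pass in edgeR (adjusted p = 0.0684) and passed in DESeq2, without a filter and on centred log2(TPM + 1). As a ratio of TPM, CDT1 to GMNN was 0.421 and 0.471 in P1, 0.405 and 0.562 in P2, 0.275 and 0.235 in P3 and 0.502 and 0.817 in P4 hESCs, lowest in both P3 samples. CDC6, which joins ORC before the MCM ring is loaded, was at 107 and 86.9 CPM in P1, 124 and 123 in P2, 93.7 and 118 in P3 and 90.2 and 75.8 in P4 hESCs. The 2 P2 samples of CDC6 were the highest of the 8 (6.69% of all tested genes), and no pair of passage groups passed.

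Of the MCM ring, MCM6 alone passed, in P3 against P1 (12.5% of all tested genes passed) and in P3 against P2 hESCs (11.7%). MCM6 (ENSG00000076003, chr2:135839626-135876426, minus strand) was at 158 and 149 CPM in P1, 161 and 162 in P2, 241 and 264 in P3 and 167 and 150 in P4 hESCs. The P3 mean of 252 ± 16.7 CPM (SD, n = 2) stood against 153 ± 6.67 in P1, 161 ± 0.225 in P2 and 158 ± 12.2 in P4 hESCs. On the log2 scale MCM6 was higher in P3 than in P1 hESCs by 0.72 ± 0.18 (SE; edgeR's adjusted p = 0.0236) and than in P2 hESCs by 0.64 ± 0.18 (edgeR's adjusted p = 0.0379), with an adjusted p of 0.0359 for any difference among the 4 groups in the same edgeR test. The last call was lost when any 1 sample other than P4 replicate 1 was left out; the F test then called 0 replication genes and 6.12 to 11.9% of all genes, except POLD3 without P3 replicate 1 and GINS3 and RRM2 without P4 replicate 2. P4 against P3 hESCs, at -0.67 ± 0.18, did not pass in edgeR (adjusted p = 0.0628) and passed in DESeq2 and with the mitochondrial share as a covariate. None of the other 5 ring genes passed in a pair of passage groups. MCM2 was at 184 and 209 CPM in P1, 183 and 185 in P2, 238 and 210 in P3 and 228 and 138 in P4 hESCs. MCM3 was at 366 and 389 CPM in P1, 345 and 358 in P2, 424 and 472 in P3 and 413 and 306 in P4 hESCs. In MCM3, as in MCM6, both P3 samples were the highest, but the difference from P1 was 0.25 ± 0.20 (edgeR's adjusted p = 0.441). MCM4 was at 254 and 262 CPM in P1, 253 and 240 in P2, 258 and 306 in P3 and 261 and 174 in P4 hESCs. MCM5 was at 277 and 332 CPM in P1, 258 and 265 in P2, 296 and 270 in P3 and 271 and 178 in P4 hESCs. MCM7 was at 410 and 508 CPM in P1, 403 and 434 in P2, 439 and 410 in P3 and 466 and 377 in P4 hESCs. In MCM2 to MCM5 the 2 P4 samples were far apart, with replicate 2 the lowest of all 8, so that the P4 group overlapped the others. MCM7 shares exons with AP4M1, and MCM2 with TPRA1, on the opposite strand. As a ratio of TPM, MCM7 to MCM6 was 4.23 and 5.41 in P1, 4.01 and 4.03 in P2, 2.59 and 2.40 in P3 and 4.15 and 3.94 in P4 hESCs, lowest in both P3 samples.

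The helicase is activated by CDC45 and the 4 GINS subunits, with MCM10 acting at the same step, and 2 of these 6 genes rose in P3 compared with P1 hESCs (4.49% of all tested genes). GINS3 (ENSG00000181938, chr16:58295080-58406144) was at 13.4 and 10.96 CPM in P1, 16.9 and 15.7 in P2, 23.6 and 24.6 in P3 and 18.1 and 11.7 in P4 hESCs. Its log2 fold change of 0.98 ± 0.25 in P3 against P1 (SE; edgeR's adjusted p = 0.0241) was the largest among the 44 genes in that comparison. GINS2 (ENSG00000131153, chr16:85676198-85690073, minus strand) was at 39.9 and 38.9 CPM in P1, 43.5 and 51.0 in P2, 68.1 and 61.5 in P3 and 48.0 and 41.6 in P4 hESCs, a log2 fold change of 0.72 ± 0.19 in P3 against P1 (edgeR's adjusted p = 0.0297). In both genes the 2 P3 samples lay above all others and the P4 samples overlapped those of P1 or P2. GINS2 shares exons with GSE1 on the opposite strand, and GSE1 had a mean count of 3959, so reads of one could be counted for the other if strand was not used. GINS1, GINS4, MCM10 and CDC45 had CPM values of 19.1 to 81.0, and none passed in any pair of passage groups. GINS4 also had its highest values in the 2 P3 samples, and CDC45, like ORC5, its lowest in the 2 P4 samples (5.52% of all tested genes).

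**Figure D4:**
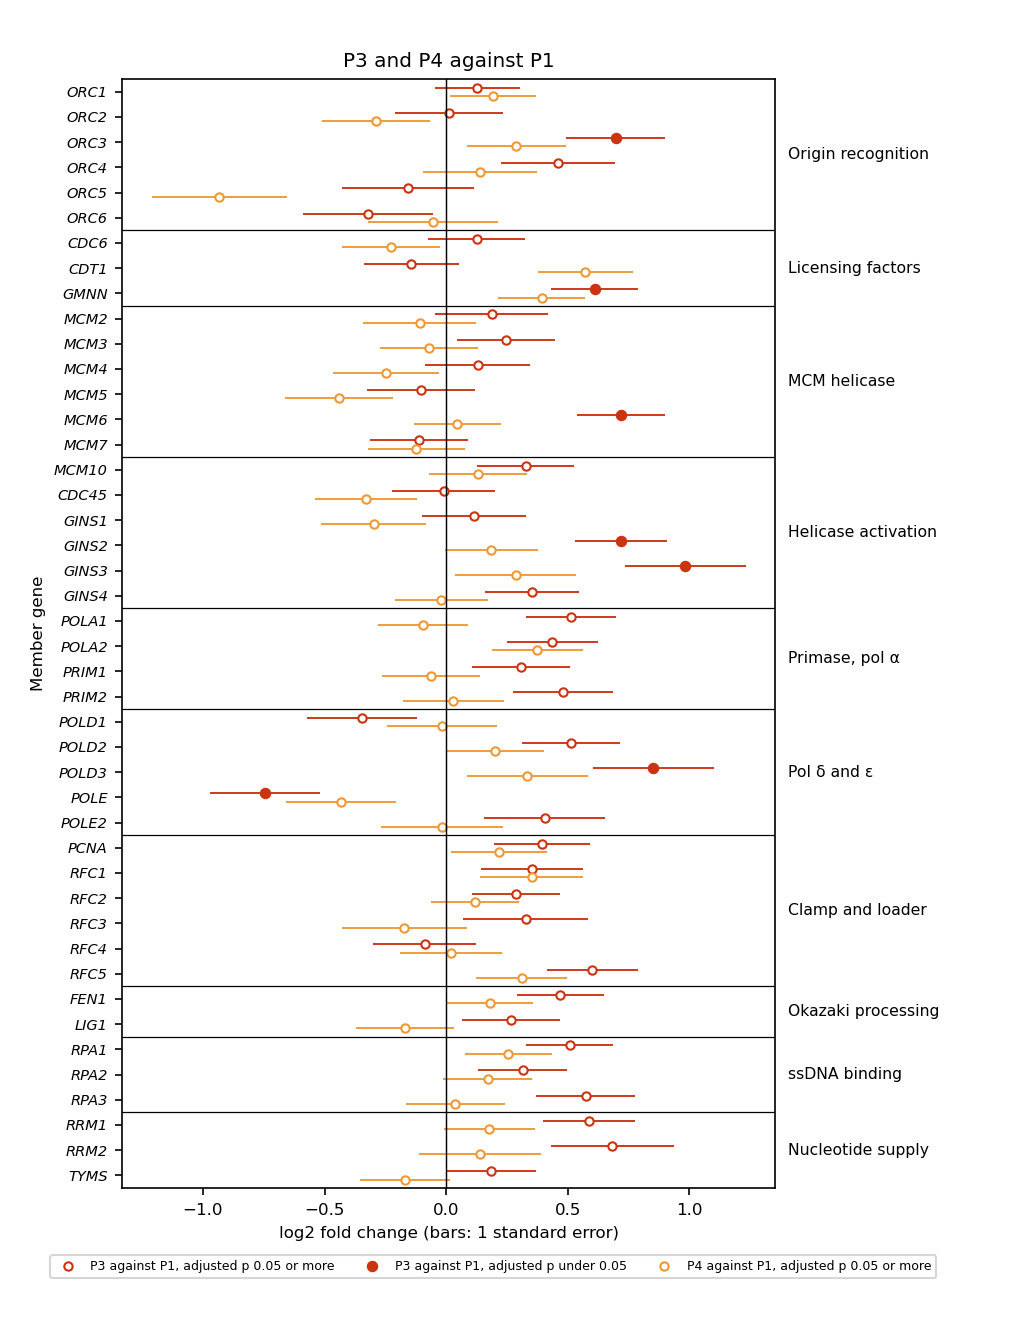
Log2 fold change of each replication gene in P3 against P1 hESCs (red) and P4 against P1 hESCs (orange), with bars of 1 standard error on either side; filled points passed at an adjusted p under 0.05 in edgeR's quasi-likelihood test. The 7 filled points are MCM6, GINS2, GINS3, ORC3, GMNN, POLD3 and POLE in P3, and none is filled in P4.

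Polymerase α and its primase start each new strand, and of their 4 genes POLA1 rose in P3 compared with P2 hESCs (5.08% of all tested genes rose). POLA1 (ENSG00000101868, chrX:24693919-24996986), the catalytic subunit, was at 83.2 and 78.6 CPM in P1, 69.7 and 75.03 in P2, 110 and 121 in P3 and 83.7 and 67.9 in P4 hESCs. The 2 P3 samples of POLA1 stood above the other 6, by 0.67 ± 0.19 on the log2 scale against P2 (SE; edgeR's adjusted p = 0.0364) and 0.51 ± 0.19 against P1 (edgeR's adjusted p = 0.0892). MCM6 and POLA1 both lost their call in P3 against P2 when any 1 of the P1, P2 or P3 samples was left out, and RRM2 was called besides them when either P4 sample was left out. PRIM2, the large primase subunit, was at 30.0 and 24.1 CPM in P1, 29.2 and 27.0 in P2, 34.4 and 41.1 in P3 and 26.4 and 28.8 in P4 hESCs. PRIM2 again had its 2 highest values in P3 hESCs, without passing (0.48 ± 0.21 against P1; edgeR's adjusted p = 0.143). PRIM1, the subunit that makes the primer, ranged from 43.8 to 66.6 CPM and shares exons with the abundant gene NACA on the same strand.

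The genes of polymerases δ and ε, which copy the lagging and the leading strand, differed in direction. POLD3 (ENSG00000077514, chr11:74493851-74669117), an accessory subunit of polymerase δ, was at 26.6 and 20.3 CPM in P1, 29.6 and 26.9 in P2, 32.2 and 52.4 in P3 and 29.6 and 29.5 in P4 hESCs. POLD3 rose in P3 against P1 hESCs by 0.85 ± 0.25 on the log2 scale (SE; edgeR's adjusted p = 0.0444), but the 2 P3 samples differed by more than the other 6 did among themselves. Without P3 replicate 2 its log2 fold change was 0.46 (edgeR's adjusted p = 0.249), and POLD3 was not called without any 1 of the P1 or P2 samples either. POLE (ENSG00000177084, chr12:132623753-132687365, minus strand), the catalytic subunit of polymerase ε, was at 109 and 152 CPM in P1, 109 and 115 in P2, 65.9 and 89.8 in P3 and 107 and 86.5 in P4 hESCs. POLE was the only one of the 44 genes called as lower in P3 against P1 hESCs (-0.75 ± 0.23, edgeR's adjusted p = 0.0496), close to the threshold. With DESeq2's size factors POLE did not pass (adjusted p = 0.0535), and the highest of its values was P1 replicate 2. Without that sample the log2 fold change of POLE was -0.48 (edgeR's adjusted p = 0.379), and the call was also lost without either P2 sample, P3 replicate 1 or P4 replicate 2. POLE2, the second subunit of the same enzyme, was at 15.7 and 14.2 CPM in P1, 14.6 and 11.3 in P2, 19.4 and 20.2 in P3 and 17.9 and 11.7 in P4 hESCs. In the 2 P3 samples POLE2 thus had its highest values and POLE low ones, whereas in P4 replicate 2 both were low (11.7 and 86.5 CPM). The TPM ratio of POLE to POLE2 was 2.51 and 3.45 in P1, 2.35 and 2.97 in P2, 0.961 and 1.52 in P3 and 1.77 and 2.37 in P4 hESCs. POLE2 itself passed in no comparison (0.40 ± 0.25 in P3 against P1; edgeR's adjusted p = 0.302). POLD2 was at 84.6 and 83.3 CPM in P1, 90.8 and 99.6 in P2, 138 and 101 in P3 and 105 and 88.2 in P4 hESCs. Only the first P3 sample of POLD2 stood clear of the rest, and the catalytic subunit POLD1 ranged from 88.4 to 138 CPM without passing.

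The clamp and its loader had no call in any pair of passage groups. PCNA (chr20:5114953-5126626, minus strand) was at 213 and 194 CPM in P1, 216 and 196 in P2, 253 and 282 in P3 and 267 and 206 in P4 hESCs. The P4 samples of PCNA spanned the range from the early to the P3 samples, and the log2 fold change in P3 against P1 was 0.39 ± 0.20 (SE; edgeR's adjusted p = 0.205). RFC5, with the values given above, was the loader gene nearest to passing (0.60 ± 0.19 in P3 against P1; edgeR's adjusted p = 0.054). RFC1, RFC2, RFC3 and RFC4 had CPM values of 35.2 to 117.

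Behind the fork, FEN1 trims the flap of each Okazaki fragment and LIG1 seals it. FEN1 was at 104 and 92.0 CPM in P1, 117 and 120 in P2, 142 and 130 in P3 and 106 and 116 in P4 hESCs. FEN1 had its highest values in P3 hESCs, as did LIG1, which ranged from 70.5 to 116 CPM, and neither passed. FEN1 shares exons with FADS2 on the same strand. RPA, a complex of RPA1, RPA2 and RPA3, coats the single strands. RPA1 was at 135 and 119 CPM in P1, 145 and 147 in P2, 181 and 180 in P3 and 145 and 158 in P4 hESCs. RPA2 was at 61.1 and 52.9 CPM in P1, 76.3 and 74.5 in P2, 75.7 and 66.01 in P3 and 67.6 and 60.7 in P4 hESCs. RPA3 was at 44.7 and 40.7 CPM in P1, 47.1 and 44.01 in P2, 73.7 and 53.6 in P3 and 44.6 and 43.2 in P4 hESCs. RPA1 and RPA3 were highest in both P3 samples and RPA2 was not, with log2 fold changes in P3 against P1 of 0.51 ± 0.18, 0.57 ± 0.20 and 0.31 ± 0.18 (SE) and adjusted p-values in edgeR of 0.0805, 0.0816 and 0.276. P2 against P1 hESCs gave no replication gene past the threshold in edgeR or DESeq2 (0.00513% of all tested genes passed), and RPA2 alone had an unadjusted p under 0.05 (9.14% of all tested genes).

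Deoxynucleotides are made by ribonucleotide reductase, of which RRM1 is the large and RRM2 the small, S-phase subunit, and TYMS makes thymidylate. RRM2 was at 95.6 and 82.0 CPM in P1, 90.9 and 82.4 in P2, 135 and 150 in P3 and 126 and 69.1 in P4 hESCs. RRM1 was at 113 and 92.1 CPM in P1, 114 and 116 in P2, 165 and 144 in P3 and 121 and 112 in P4 hESCs. Both had their 2 highest values in P3 hESCs, by 0.68 ± 0.25 and 0.59 ± 0.19 on the log2 scale against P1 (SE), and neither passed in edgeR (adjusted p = 0.0951 and 0.0603). The 2 P4 samples of RRM2 included the lowest of the 8 and differed by -0.87 on the log2 scale (replicate 2 minus replicate 1), larger than that of any other of the 44 genes. TYMS kept to a narrow range of 50.02 to 73.5 CPM.

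P4 hESCs were compared with P1 and with P3 hESCs. Against P1 hESCs no replication gene passed in edgeR (5.94% of tested genes passed), 3 had an unadjusted p under 0.05 (CDT1, GMNN and ORC5; 21.5% of all tested genes), DESeq2 called ORC5 (8.99% of all genes), and the median was 0.03 on the log2 scale. Against P3 hESCs no gene passed in edgeR (3.31% passed), 9 had an unadjusted p under 0.05 (19.2% of all tested genes) and DESeq2 called CDT1, MCM6 and POLA1 (6.72% of all genes). Of the 44 genes, 38 were below 0 in P4 against P3 hESCs, with a median of -0.32 on the log2 scale against 0.01 over all tested genes, and the other 6 (CDT1, ORC1, ORC6, POLD1, POLE and RFC4) were above 0, as were 50.6% of all tested genes. This comparison and that of P3 with P1 hESCs share the P3 samples. Between the 2 P4 samples the median difference of the 44 genes was -0.21 (replicate 2 minus replicate 1), against 0.02 over all tested genes. Of the 44 genes, 34 were lower in replicate 2, and without P4 replicate 2 the median in P4 against P3 hESCs was -0.19. Without P4 replicate 1, edgeR called GINS3 and RRM2 as lower in P4 than in P3 hESCs, and 4.96% of all genes in either direction.

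**Figure D5:**
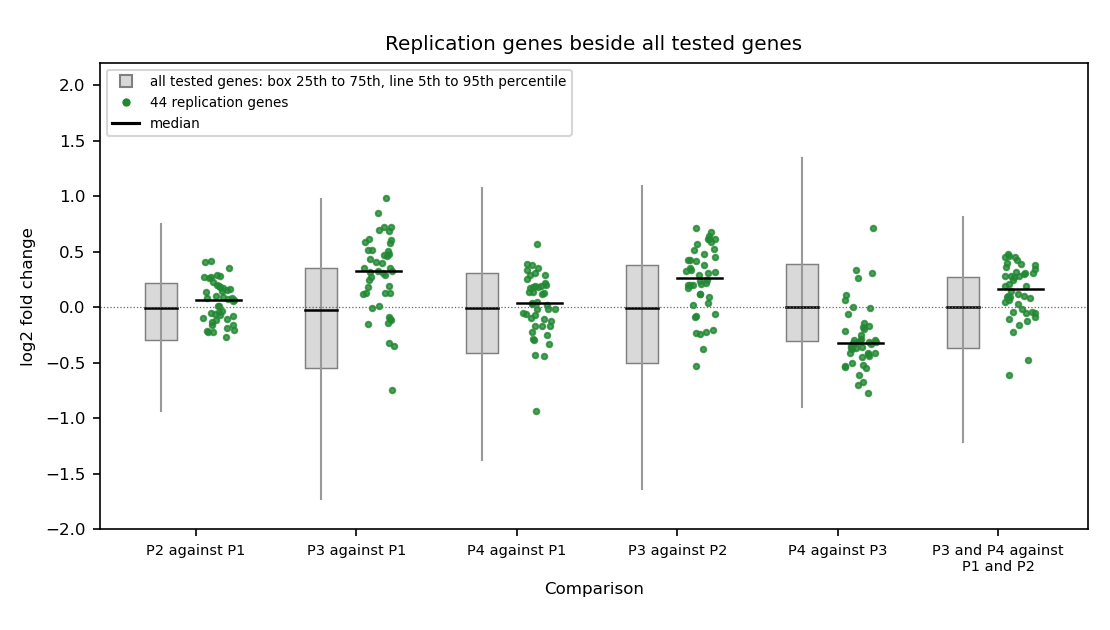
Log2 fold changes of the 44 replication genes (green points, horizontal position within a column is arbitrary) beside all tested genes (grey box from the 25th to the 75th percentile and line from the 5th to the 95th) in 6 comparisons, with black lines at the medians. The replication genes centre on 0.33 in P3 against P1 and on -0.32 in P4 against P3 hESCs, while the median of all genes stays between -0.02 and 0.01.

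Genes with and without the E2F letters were set side by side. The 17 genes with the letters had a median log2 fold change of 0.33 in P3 against P1 hESCs, as did the 21 genes with a window that lacks them. All 6 called genes with a window, MCM6, GINS2, GINS3, ORC3, GMNN and POLE, held the letters, and POLE fell while the other 5 rose. Of all 38 genes with a window, 17 (44.74%) held them, and a link between the letters and the calls was not tested.

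Other genes of replication and of entry into S phase were described from 6 lists of 104 genes, of which 102 were tested. In P3 and P4 compared with P1 and P2 hESCs, CCND3, CCNA2, SAMHD1, GMPS and FBXO5 rose and E2F2 fell, 6 of 102 (7.54% of all tested genes passed). CCNA2, the cyclin of S phase, was at 117 and 90.7 CPM in P1, 109 and 92.1 in P2, 186 and 185 in P3 and 155 and 134 in P4 hESCs, with all late samples above all early ones (0.69 ± 0.15; edgeR's adjusted p = 0.0213), and it shares exons with EXOSC9 on the opposite strand. CCND3, a G1 cyclin, was at 14.1 and 17.6 CPM in P1, 15.1 and 16.4 in P2, 30.5 and 24.3 in P3 and 29.4 and 30.5 in P4 hESCs (0.86 ± 0.15; edgeR's adjusted p = 0.00532). E2F2, an activating E2F factor, was at 5.501 and 7.44 CPM in P1, 6.501 and 7.34 in P2, 2.81 and 3.40 in P3 and 2.78 and 4.14 in P4 hESCs (-1.03 ± 0.22; edgeR's adjusted p = 0.0186). In CCND3 too all late samples stood above all early ones, a pattern of 8.38% of all tested genes, and in E2F2 all stood below (9.19%). These 3 genes were named because they passed this comparison, so their separation of the samples is no separate result. MCM6, called for P3 hESCs, had P4 values of 167 and 150 CPM, which overlapped those of P1 and P2 hESCs. SAMHD1, which degrades deoxynucleotides, and GMPS, which makes guanosine monophosphate, rose by 0.59 ± 0.12 and 0.63 ± 0.16 on the log2 scale (SE; edgeR's adjusted p = 0.0155 and 0.0381), and FBXO5, an inhibitor of the anaphase-promoting complex, by 0.55 ± 0.14 (edgeR's adjusted p = 0.035). SAMHD1 lies on chromosome 20 (chr20:36889773-36951901), and whether the copy number gain of P3 and P4 hESCs covers it was not tested. None of the 30 genes of origin firing and the fork, of the 9 histone chaperone genes or of the 12 tested fork checkpoint genes passed in that comparison.

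Of the 12 tested genes of cyclin-dependent kinase inhibitors and of protein degradation, 2, CDKN1A and CDKN1C, passed between P4 and P3 hESCs (3.31% of all tested genes), both higher in P4. CDKN1A, which encodes p21, was at 11.2 and 15.8 CPM in P1, 18.2 and 21.0 in P2, 8.44 and 3.85 in P3 and 57.0 and 86.0 in P4 hESCs. CDKN1A was lower in P3 than in P1 hESCs by a log2 fold change of -1.14 ± 0.34 (SE; edgeR's adjusted p = 0.0483) and higher in P4 than in P1 hESCs by 2.41 ± 0.34 (edgeR's adjusted p = 0.00146). CDKN2D, which encodes the inhibitor p19, rose in P3 against P1 hESCs by 1.16 ± 0.32 (edgeR's adjusted p = 0.0341), at 1.98 and 2.24 CPM in P1, 2.31 and 2.41 in P2, 4.11 and 5.30 in P3 and 2.54 and 2.22 in P4 hESCs, and did not pass in P4 against P3 (-0.98 ± 0.32; edgeR's adjusted p = 0.113). RRM2B, the small reductase subunit that is induced by p53, was at 119 and 83.8 CPM in P1, 135 and 101 in P2, 48.4 and 55.7 in P3 and 88.1 and 113 in P4 hESCs, with -0.96 ± 0.23 in P3 against P1 (edgeR's adjusted p = 0.0206). Of the 102 genes, ASF1A, CCNA2, CCND3, CDC25A, CDKN2D, GMPS, SAMHD1 and TFDP2 rose in P3 against P1 hESCs and CDKN1A, E2F2 and RRM2B fell, 11 in all where 12.5% of all tested genes passed in either direction. The 102 genes had a median of 0.24 on the log2 scale in that comparison. In P4 against P1 hESCs CCND3, CDKN1A and CDKN1C rose, 3 of 102 (5.94% of all tested genes passed).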

How the data were processed

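Per the labels, strand-specific poly(A) libraries were made with a TruSeq kit from total RNA of 2 samples in each of the P1 to P4 groups. The submitters' processing notes name FastQC, Trim Galore, STAR 2.7.3a and RSEM 1.3.3 with the builds GRCh38 and hg38; the annotation release and strand setting are not given in the sources used here. The authors deposited for each gene the expected count of RSEM, which is not normalized, and its TPM.

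Expected counts were rounded and analysed with edgeR 4.0.16 in R 4.3.3. TMM gave the scaling, and filterByExpr with the 4 passage groups kept 19499 of 60675 genes. A model of 2 groups set P3 and P4 against P1 and P2 hESCs, and a model of 4 groups compared single passage groups, by the quasi-likelihood test, adjusted by Benjamini-Hochberg across all tested genes. Passing means an adjusted p under 0.05, and a standard error is the log2 fold change divided by the root of F. Alternatives were DESeq2 1.42.0, its size factors in edgeR, no filter, limma 3.58.1 on log2(TPM + 1) or log2(TPM + 0.1), a replicate block, mitochondrial genes removed or their share as a covariate, the 4-group model for the late against early comparison, only the groups compared, the study's call rule and each sample left out. Centring log2(TPM + 1) was added after seeing the data. The scripts were tested on simulated data.

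The members, the other gene lists and the tests were chosen with earlier results of these data known. Values in every sample are given for the 24 members with the smallest p across the 4 groups, for any called, and for MCM2 to MCM7 and PCNA; of the other lists, up to 8 genes each with the smallest late against early p could be named, and those that passed are. Genes of these lists and markers named for another comparison were chosen after their values were seen. Positions are from GENCODE 29, symbols matched 56558 identifiers, and promoter windows are RefSeq's. Other experiments of the study were not analysed here.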

Additional observations from a re-analysis of the deposited data

Results flagged for a closer look

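A single sample stood far from the other 3 in 4 of 58 sets of early (P1 and P2) or late (P3 and P4) samples, where Dixon's test flags about 1 in 20, or 2.9, by chance. In the early samples P1 replicate 2 was the distant one 3 times: MCM2 at 209 CPM against 183 to 185 (gap over range 0.912), POLE at 152 CPM against 109 to 115 (0.83) and RRM1 at 92.1 CPM against 113 to 116 (0.888). In the late samples POLD3 was at 52.4 CPM in P3 replicate 2 against 29.5 to 32.2 in the others (0.851). That P1 replicate has the largest mitochondrial share, 18.5%, whose part in these values was not tested.

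Of the 102 related genes, 4 differed between P3 and P4 hESCs in edgeR's test of P4 against P3 itself, where 3.31% of all tested genes passed. The log2 difference was 3.54 for CDKN1A, 1.31 for CDKN1C, which encodes p57, 0.948 for RRM2B and -0.787 for DCTPP1, which hydrolyses deoxycytidine triphosphate. No replication gene passed that test.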

How the results depend on the processing

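The number of replication genes called was small, and 46 of the counts under alternatives moved by more than 1.5 times. In P3 against P1 hESCs, where 7 were called, limma on log2(TPM + 1) and log2(TPM + 0.1) gave 0, the groups compared alone 1 and the study's rule 0; leaving out 1 sample gave 0 to 8. In P3 against P2 hESCs (2 called) DESeq2 gave 4, and both TPM scales, the mitochondrial covariate and the study's rule gave 0, with 0 to 3 when 1 sample was left out. Late against early (0) had 1 in the 4-group model and 2 in DESeq2, and 0 to 3 without 1 sample. Across the 4 groups (1) DESeq2 gave 8, no filter 6, both TPM scales 0 and centred TPM 2, and leaving out 1 sample 0 to 4; the study's rule gives no value there, since it needs 1 fold change. In P4 against P1 (0), DESeq2, no filter and centred TPM each gave 1, and no left-out sample changed the 0. In P4 against P3 (0), DESeq2 gave 3, the covariate, no filter and centred TPM 1 each, and left-out samples 0 to 2. P2 against P1 stayed at 0 in each alternative run. Over all genes the share called moved too, in P3 against P1 from 4.45 to 16.0% over the tools, scalings and models and from 2.57 to 13.7% with 1 sample left out. The causes were not tested.

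Replicate numbers do not pair the samples by the check made: the correlation across genes of replicate differences between groups was -0.119 to 0.178. With the replicate block the calls were 2 across the 4 groups (ORC5 besides MCM6), 1 in P4 against P1 (ORC5) and 6 in P3 against P1, where POLD3 had an adjusted p of 0.0527; other counts did not move.

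Direction was checked in late against early and in P3 against P1 hESCs, for the replication genes whose values are given in every sample. There it was lost only for small differences. On log2(TPM + 1) and log2(TPM + 0.1), late against early was -0.13 and -0.13 for MCM2, -0.0088 and -0.0090 for MCM3, and -0.077 and -0.077 for RPA2, and P3 against P1 was -0.0082 and -0.0085 for MCM2; MCM4 without a filter was 0.012. With 1 sample left out, late against early ranged from -0.12 to 0.13 for MCM4, -0.099 to 0.027 for MCM7 and -0.063 to 0.11 for RPA2, and P3 against P1 from -0.046 to 0.31 for CDC6, -0.21 to 0.034 for MCM5, -0.24 to 0.054 for MCM7 and -0.36 to 0.11 for ORC5.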

Other observations

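DBF4, which activates the kinase that fires origins, HAT1, a histone acetyltransferase, CUL4B, a ubiquitin ligase scaffold, and E2F5 rose in P3 against P2 hESCs, with CCNA2, CCND3, GMPS and SAMHD1 higher and CDKN1A, RRM2B and E2F2 lower as well, 11 of the 102 related genes where 11.7% of all tested genes passed. ASF1A, a histone chaperone, was at 29.8 and 21.9 CPM in P1, 32.4 and 27.0 in P2, 53.5 and 47.2 in P3 and 44.04 and 31.1 in P4 hESCs, and rose by 0.96 on the log2 scale in P3 against P1 (edgeR's adjusted p = 0.0224); it shares exons with MCM9 on the opposite strand. CDC25A, a phosphatase that activates CDK2, was at 66.3 and 59.1 CPM in P1, 78.3 and 78.5 in P2, 107 and 95.7 in P3 and 90.7 and 67.1 in P4 hESCs (0.70 in P3 against P1; edgeR's adjusted p = 0.0403). The median of the 9 histone chaperone genes in P3 against P1 was 0.36 on the log2 scale, with 1 called (12.5% of all tested genes), and all 9 were above 0 (48.4% of all tested genes).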
